A study of Homo sapiens with 12 samples.

Results

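The 230 genes described here are the abundant long noncoding RNA (lncRNA) genes of DU145 cells. A gene was included when it lies on an autosome, is annotated as a lncRNA in GENCODE release 44, and had a mean level of at least 5 CPM, which is the gene's count scaled by the library's total count, over all 12 libraries. The count table holds 28747 gene identifiers, of which 3744 are autosomal lncRNA genes and 2559 of those had a count in some library. Above 100 CPM there were 14 members, 117 lay between 10 and 100 CPM, and 99 lay below 10 CPM, with a median of 11.4 CPM. SUCLG2-DT at 5.13 CPM and MTA1-DT at 5.07 CPM were just inside the limit, and LIPE-AS1 at 4.95 CPM and ENSG00000176593 at 4.93 CPM were just outside it. The members were chosen by their mean level, so levels are given as a description and not as a finding. In 61 members the mean of some group fell below 5 CPM, and such a gene entered through the groups in which it was high, whereas 169 members reached 5 CPM in each of the 4 groups.

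DU145, a line of prostate cancer cells from a human brain metastasis, was sequenced with 3 biological replicates in each of 4 groups: adherent shCtrl, adherent shSigma, tumor sphere shCtrl and tumor sphere shSigma. shCtrl cells carried a control hairpin and shSigma cells a hairpin against the gene under study, both delivered by lentivirus, so that all 12 libraries come from transduced, selected lines and the hairpin and the history of the line cannot be told apart. Adherent cells were grown as a bulk layer with serum, and tumor spheres without attachment and without serum, in a medium with growth factors, and attachment and medium cannot be told apart either. The study used a pair of hairpins and does not state which was sequenced.

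Long noncoding RNAs are transcripts that are not translated into a known protein and act as RNA, serve as precursors, or are by-products of transcription. Some build nuclear bodies, as NEAT1 does for paraspeckles. Others are hosts, whose introns release small nucleolar RNAs (snoRNAs), guides for chemical modification of ribosomal RNA, or whose transcripts contain microRNAs (miRNAs), which pair with messages through a short seed. Many start beside a coding gene and run in the other direction, or overlap it on the other strand.

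Levels here and below are CPM on library sizes scaled between libraries by the trimmed mean of M values (TMM), one value per library in the order of the replicate numbers. The epithelial keratins KRT8 and KRT18 were high in all 12 libraries, at 202 to 466 CPM and 281 to 516 CPM, and KLK3 and KRT5, of luminal prostate and basal cells, had at most 0.0331 CPM in any group mean. Total counts ran from 16472722 to 26957777. The first adherent shCtrl and the third adherent shSigma library stood apart from their groups in the same way, with a correlation of 0.82 between their deviations from the group means across genes. Several genes that all cells use, such as FBL and EEF1G, are listed at 0 in the table, so a low value here does not show that an RNA is absent.

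The annotation places 26 members as hosts of a snoRNA or small Cajal body RNA and 16 as hosts of a miRNA, 39 genes in all. On the other strand 138 members overlap a coding gene, 30 overlap one on the same strand, and 97 start within 1000 bases of a coding gene's start on the other strand (facing pairs). None of these applies to 39 members, and 58 have no exonic base in common with another annotated gene. The use of strand in counting is not stated, so reads of a member and of an overlapping gene may not have been kept apart. The sequences of the miRNAs within 5 hosts that passed both thresholds in a knockdown comparison (adjusted p under 0.05 and absolute log2 fold change over 1) are shown, 1 arm each and MIR10526 of MIR100HG left out, because a miRNA pairs with messages through its seed, bases 2 to 8, given in capitals. NEAT1, which contains MIR612, passed as well and is not shown. They are RefSeq sequences on GRCh38.p14, all from the minus strand.
MIR100HG, miR-100-5p at chr11:122152275-122152296: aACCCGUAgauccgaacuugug
MIR100HG, let-7a-5p at chr11:122146568-122146589: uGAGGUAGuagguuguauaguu
MIR100HG, miR-125b-5p at chr11:122099809-122099830: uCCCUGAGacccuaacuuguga
MIR34AHG, miR-34a-5p at chr1:9151735-9151756: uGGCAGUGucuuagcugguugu
LINC-PINT, miR-29a-3p at chr7:130876748-130876769: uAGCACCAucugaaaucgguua
LINC-PINT, miR-29b-3p at chr7:130877467-130877489: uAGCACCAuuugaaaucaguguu
MIR1915HG, miR-1915-3p at chr10:21496576-21496595: cCCCAGGGcgacgcggcggg
MIR4435-2HG, miR-4435 at chr2:111321061-111321082: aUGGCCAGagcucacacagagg
Only the pair miR-29a-3p and miR-29b-3p, both within LINC-PINT, share a seed among these 8. The 3 miRNAs shown for MIR100HG have different seeds and stem from 1 annotated gene. Mature miRNAs were not measured, and the values below are those of the host genes.

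Host genes of snoRNAs often begin like messages for ribosomal proteins, with a C followed by more C or T bases at the first transcribed position. A start with C and at least 3 further C or T bases, read on the gene's strand only, was found in 6 of the 21 hosts with a RefSeq start, in 5 of 152 other members with one, and in 5.45% of 35116 starts in the RefSeq table. The windows of 30 bases before and 30 bases from the start are shown for 4 of these hosts on GRCh38.p14, with the run of C and T in capitals, so that the feature can be seen beside the values of these hosts below.
SNHG5 at chr6:85678704-85678763, minus strand: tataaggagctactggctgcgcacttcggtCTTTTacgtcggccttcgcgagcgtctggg
ZFAS1 at chr20:49278612-49278671, plus strand: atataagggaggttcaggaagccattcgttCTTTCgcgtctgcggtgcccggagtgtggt
SNHG12 at chr1:28581844-28581903, minus strand: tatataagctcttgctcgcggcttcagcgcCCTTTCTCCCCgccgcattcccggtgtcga
SNHG19 at chr16:2155329-2155388, minus strand: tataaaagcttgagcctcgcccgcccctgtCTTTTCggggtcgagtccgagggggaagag
The run was 5 bases long in SNHG5 and ZFAS1, 11 in SNHG12 and 6 in SNHG19, and it was 4 in SNHG7 and SNHG26, which are not shown. A match of letters describes these windows and does not show where transcription starts in DU145 cells.

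**Figure D1:**
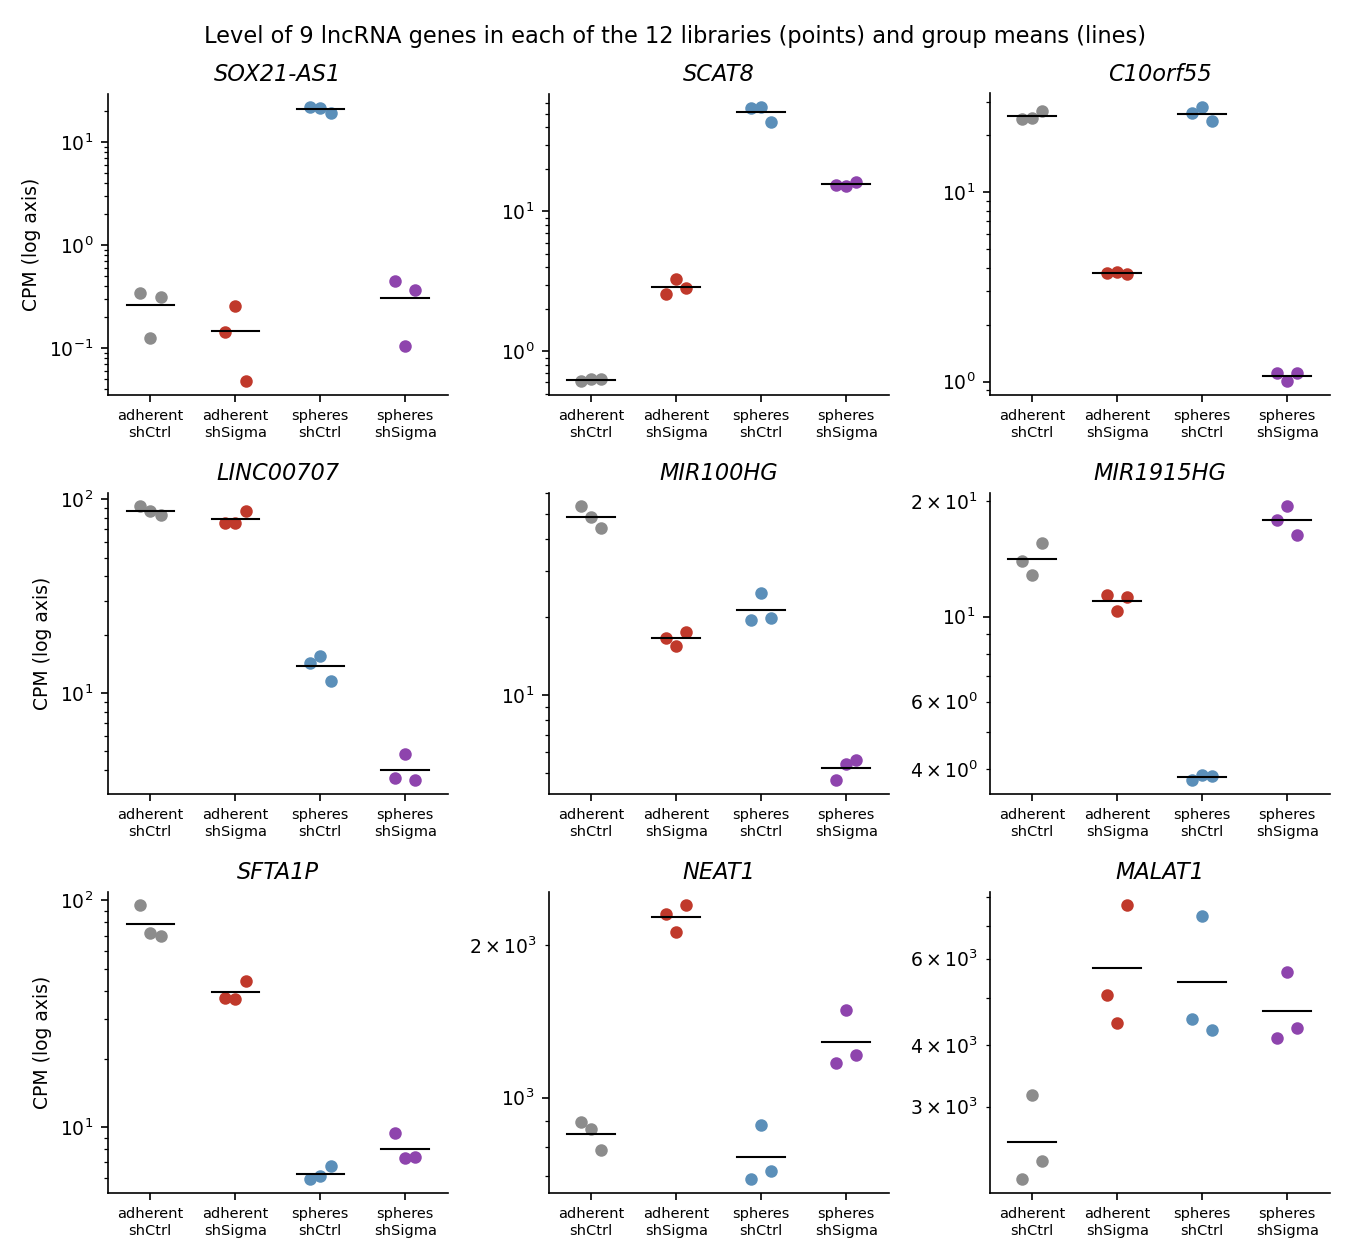
CPM (log axis, a different range in each panel) of 9 lncRNA genes in the 12 libraries, one point per library and a line at each group mean. SOX21-AS1 reached 19.3 to 21.9 CPM in tumor sphere shCtrl libraries only, and C10orf55 was lower in shSigma than in shCtrl libraries in both cultures.

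Per length of annotated exon, MALAT1 was the most abundant member at 440 CPM per kb, followed by SNHG6 at 112, GAS5 at 105, NORAD at 64.8, SNHG1 at 59.4 and NEAT1 at 56.5 CPM per kb. All members together took 0.942% to 1.70% of the counts of a library, and MALAT1 alone took 0.206% to 0.741%.

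Whether the knockdown changed these genes was asked in each culture, by edgeR's quasi-likelihood test of 3 against 3 libraries, its p-values adjusted by Benjamini-Hochberg across the whole table. In adherent cells 24 of 229 members tested were higher in shSigma and 11 were lower past both thresholds, together 15.3% of those tested. Of all 13764 genes, 13.7% were called (7.59% higher and 6.13% lower), and of autosomal coding genes at the same 5 CPM limit, 8.91%. In tumor spheres 19 of 230 were higher and 15 lower, 14.8% of those tested, beside 13.1% of all 13774 genes (5.94% higher and 7.17% lower) and 7.26% of the coding genes. At an adjusted p under 0.05 alone, 76 members were higher and 59 lower in adherent cells (22.3% and 27.7% of all genes), and 83 were higher and 48 lower in spheres (30.2% and 30.9% of all genes). The share of members past both thresholds was thus near that of all genes and above that of coding genes of at least 5 CPM. Members that entered through the groups in which they were high are among these calls. The groups of 3 libraries did not overlap for 159 members in adherent cells (57.9% of all genes) and for 147 in spheres (66.8% of all genes). In bulk RNA, fewer cells that express a gene and less of its RNA per cell cannot be told apart. The median log2 fold change of members was 0.08 in adherent cells and 0.09 in spheres, beside -0.01 and 0.00 for all genes. The 169 members of at least 5 CPM in each group held 19 of the 35 adherent and 14 of the 34 sphere calls past both thresholds. No coding set was held to that narrower rule, so the part of the member rule in the higher share of members was not tested.

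The 2 knockdown comparisons share no library, but both compare the same pair of lines, so a difference between the lines would appear in each. The share of all genes called in both was not counted, so the overlaps of members have no background beside them. Past both thresholds 14 members were higher and 7 lower in both, which is 60.0% of the adherent and 61.8% of the sphere calls, and 1 member, SCAT8, was called in opposite directions. At an adjusted p under 0.05, 80 members went the same way and 7 the opposite way, namely ZFAS1, DANCR, SFTA1P, C2orf74-DT, SCAT8, MIR1915HG and ZNF232-AS1. Whichever library was left out, 28 of the 35 adherent calls and 27 of the 34 sphere calls remained. The others were MALAT1, SNHG19, SNHG25, SFTA1P, GCAWKR, LINC01963 and MAP3K9-DT in adherent cells and SNHG6, LINC-PINT, MIR34AHG, OLMALINC, FMNL1-DT, ANXA2R-AS1 and RIPK2-DT in spheres.

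**Figure D2:**
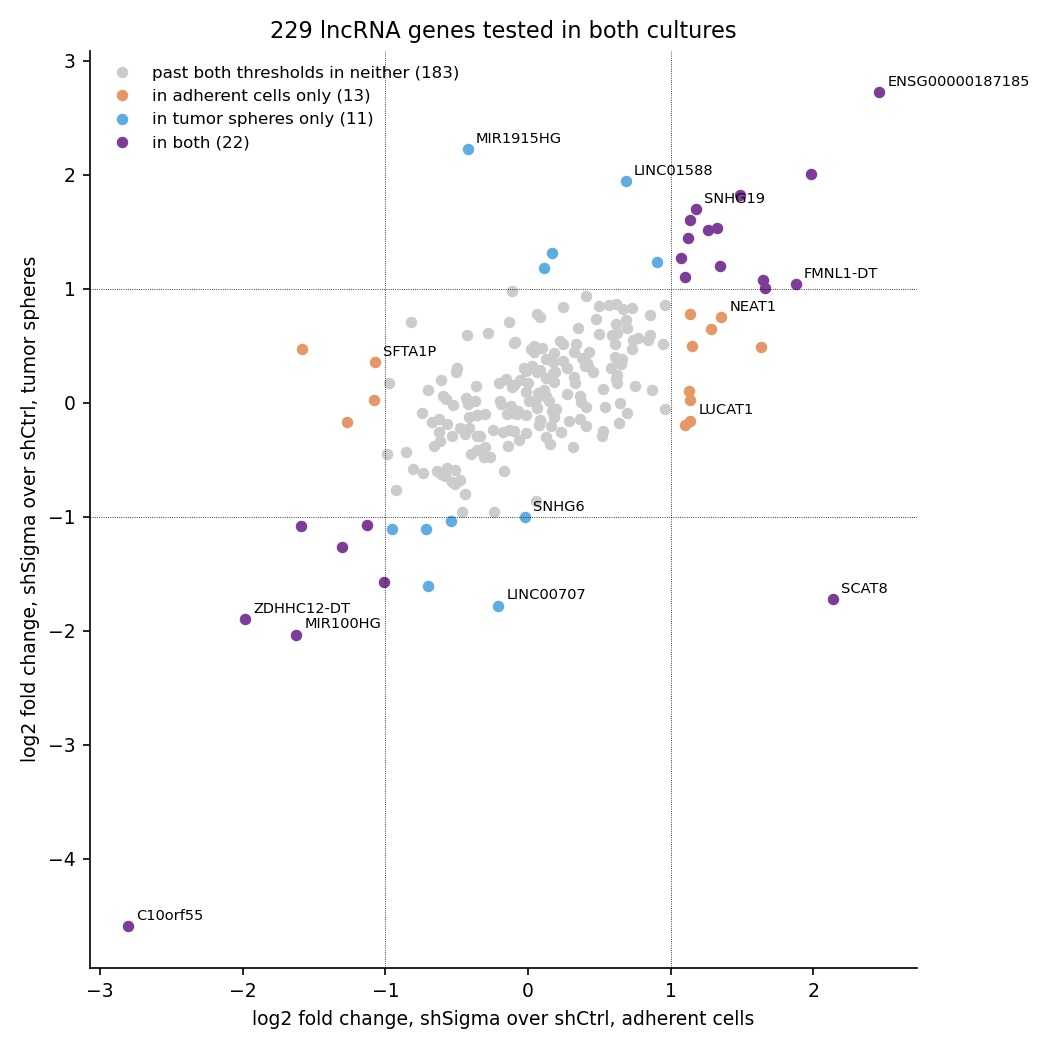
Log2 fold change of shSigma over shCtrl in adherent cells (horizontal) and in tumor spheres (vertical) for the 229 members tested in both (all but SOX21-AS1), one point per gene, with dotted lines at 1 and -1. The 22 members called in both comparisons lie in the upper right and lower left corners except SCAT8.

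Nuclear and other widely expressed RNAs are given first. MALAT1, a nuclear speckle RNA at chr11:65497640-65508073, stood at 2136, 3171 and 2325 CPM in adherent shCtrl and at 5056, 4444 and 7707 CPM in adherent shSigma libraries. Its sphere levels were 4522, 7311 and 4286 CPM in shCtrl and 4135, 5626 and 4335 CPM in shSigma libraries. The adherent groups were apart, at a log2 fold change of 1.10 ± 0.23 (SE, adjusted p = 0.00832), while the sphere groups overlapped (-0.19 ± 0.20, adjusted p = 0.42). Without the third adherent shSigma library, the highest of the 12, the adherent value was 0.87 and no longer called, and without it and the first adherent shCtrl library it was 0.77. Annotated exons of an antisense gene cover 83.7% of MALAT1. H1-2 and H2BC5, histone messages that normally lack a poly(A) tail, were also higher in adherent shSigma cells (log2 0.87 and 0.83) and in shSigma spheres (0.30 and 0.49). In the fixed list of RNAs without such a tail, 2 of 4 tested were higher and 0 lower in adherent shSigma cells at an adjusted p under 0.05. In spheres 2 of 6 were higher and 0 lower, with a median of -0.07. Of all genes, 22.3% and 30.2% were higher. RN7SL2 of the list stood at 22.0, 39.7 and 45.9 CPM in adherent shCtrl and at 43.9, 41.9 and 34.1 CPM in adherent shSigma libraries. The part of RNA selection in the MALAT1 result was not tested.

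NEAT1, the scaffold RNA of paraspeckles, which also contains MIR612, at chr11:65422774-65445540, stood at 894, 867 and 787 CPM in adherent shCtrl and at 2307, 2119.6 and 2398 CPM in adherent shSigma libraries. In spheres it stood at 690.4, 882 and 718 CPM in shCtrl and at 1168, 1486 and 1213 CPM in shSigma libraries. It was higher in all shSigma libraries than in all shCtrl libraries of its culture, by 1.36 ± 0.09 on the log2 scale in adherent cells (adjusted p = 2.9e-05) and by 0.75 ± 0.11 in spheres (adjusted p = 0.00033). Among genes of paraspeckle proteins, 3 of 6 tested (SFPQ, HNRNPK and TARDBP) were lower in adherent shSigma cells at an adjusted p under 0.05 and 0 higher, and in spheres 2 of 6 (SFPQ and PSPC1) were lower and 0 higher, beside 27.7% and 30.9% of all genes lower in adherent cells and spheres. NORAD, a cytoplasmic RNA that binds PUMILIO proteins, rose by 0.62 ± 0.07 in adherent cells and 0.61 ± 0.05 in spheres, from 287 to 306 CPM up to 446 to 527 CPM and from 235 to 260 CPM up to 368 to 387 CPM. OIP5-AS1 did not pass the test, at 0.13 ± 0.06 and 0.06 ± 0.06 on the log2 scale (adjusted p = 0.13 and 0.39).

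LUCAT1, a stress-associated lncRNA that overlaps ADGRV1 on the other strand, had a knockdown difference that differed between cultures. It stood at 73.4, 78.5 and 74.1 CPM in adherent shCtrl and at 175, 155 and 190.3 CPM in adherent shSigma libraries. Its levels in spheres were 117, 132 and 151 CPM in shCtrl and 104, 136 and 121 CPM in shSigma libraries. The adherent groups were apart (log2 1.14 ± 0.08, adjusted p = 3.2e-05) and the sphere groups overlapped (-0.16 ± 0.11, adjusted p = 0.26). The sphere difference minus the adherent one was -1.35 ± 0.16 (adjusted p = 3.1e-05).

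Of the 26 snoRNA hosts, 10 were higher and 3 lower in adherent shSigma cells and 12 higher and 3 lower in shSigma spheres at an adjusted p under 0.05. These were 50% and 57.7% of the hosts, near the 50% and 61.1% of all genes tested that passed in either direction. By direction, 22.3% of all genes were higher and 27.7% lower in adherent cells, and 30.2% and 30.9% in spheres. The share of hosts was above this background for higher and below it for lower in both cultures. Their median log2 fold changes were 0.13 and 0.19. GAS5, a growth-arrest transcript that hosts box C/D snoRNAs, rose by 0.58 ± 0.12 in adherent cells and 0.31 ± 0.08 in spheres, and SNHG8 by 0.61 and 0.40. Past both thresholds only the short hosts SNHG19 and SNHG25 were higher in both cultures, and SNHG6 was lower in spheres.

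SNHG19, host of SNORD60, stood at 5.99, 6.22 and 11.1 CPM in adherent shCtrl and at 17.8, 25.2 and 11.5 CPM in adherent shSigma libraries. In spheres it stood at 8.14, 6.73 and 7.66 CPM in shCtrl and at 27.2, 23.4 and 22.7 CPM in shSigma libraries. The sphere groups were far apart (1.70 ± 0.11, adjusted p = 1.3e-07), whereas the adherent groups nearly touched (1.18 ± 0.38, adjusted p = 0.042), and that call was lost when any 1 of 4 libraries was left out, with the replicate block and without a filter on low counts. SNHG25, host of SNORD104 and SNORA50C, was higher by 1.13 ± 0.32 in adherent cells (adjusted p = 0.024) and 1.60 ± 0.29 in spheres (adjusted p = 0.00098), and the adherent call was lost with the replicate block, without a filter on low counts and when any 1 of 3 libraries was left out.

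SNHG6, host of SNORD87, shares 58.9% of its exonic bases with genes on the other strand. It stood at 271, 251 and 281 CPM in adherent shCtrl and at 297, 295 and 231 CPM in adherent shSigma libraries. Its sphere levels were 343, 414 and 412 CPM in shCtrl and 195, 202 and 189 CPM in shSigma libraries. The sphere groups did not overlap, and the log2 fold change of -1.0004 ± 0.07 (adjusted p = 3.6e-07) was just past the threshold and under it when any 1 of 4 libraries was left out. In adherent cells it was -0.02 ± 0.12 (adjusted p = 0.91). Of the hosts whose pyrimidine starts are shown above, in spheres SNHG12 rose by 0.52 ± 0.11 and ZFAS1 fell by 0.39 on the log2 scale, while SNHG5 was at 0.17 ± 0.09 (adjusted p = 0.12). In adherent cells SNHG12 was at -0.10 ± 0.10 (adjusted p = 0.44), ZFAS1 at 0.32 ± 0.11 (adjusted p = 0.0497) and SNHG5 at -0.21 ± 0.13 (adjusted p = 0.23). SNHG7 and SNHG26 were at 0.74 and -0.43 in adherent cells (adjusted p = 0.033 and 0.076) and at 0.55 and 0.60 in spheres (adjusted p = 1.1e-05 and 0.0049). Of the core snoRNA-binding proteins, 6 of 7 tested (NOP56, NOP58, SNU13, DKC1, NOP10 and GAR1) were lower in adherent shSigma cells, and in shSigma spheres 1 was lower and 1 higher. Spliced host transcripts are known targets of nonsense-mediated decay, and of the 10 genes of that pathway tested, 3 were higher and 3 lower in adherent shSigma cells and 3 higher and 0 lower in shSigma spheres. Of all genes, 22.3% were higher and 27.7% lower in adherent cells and 30.2% higher and 30.9% lower in spheres at this threshold, so that the counts of decay genes higher in either culture were near the background.

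**Figure D3:**
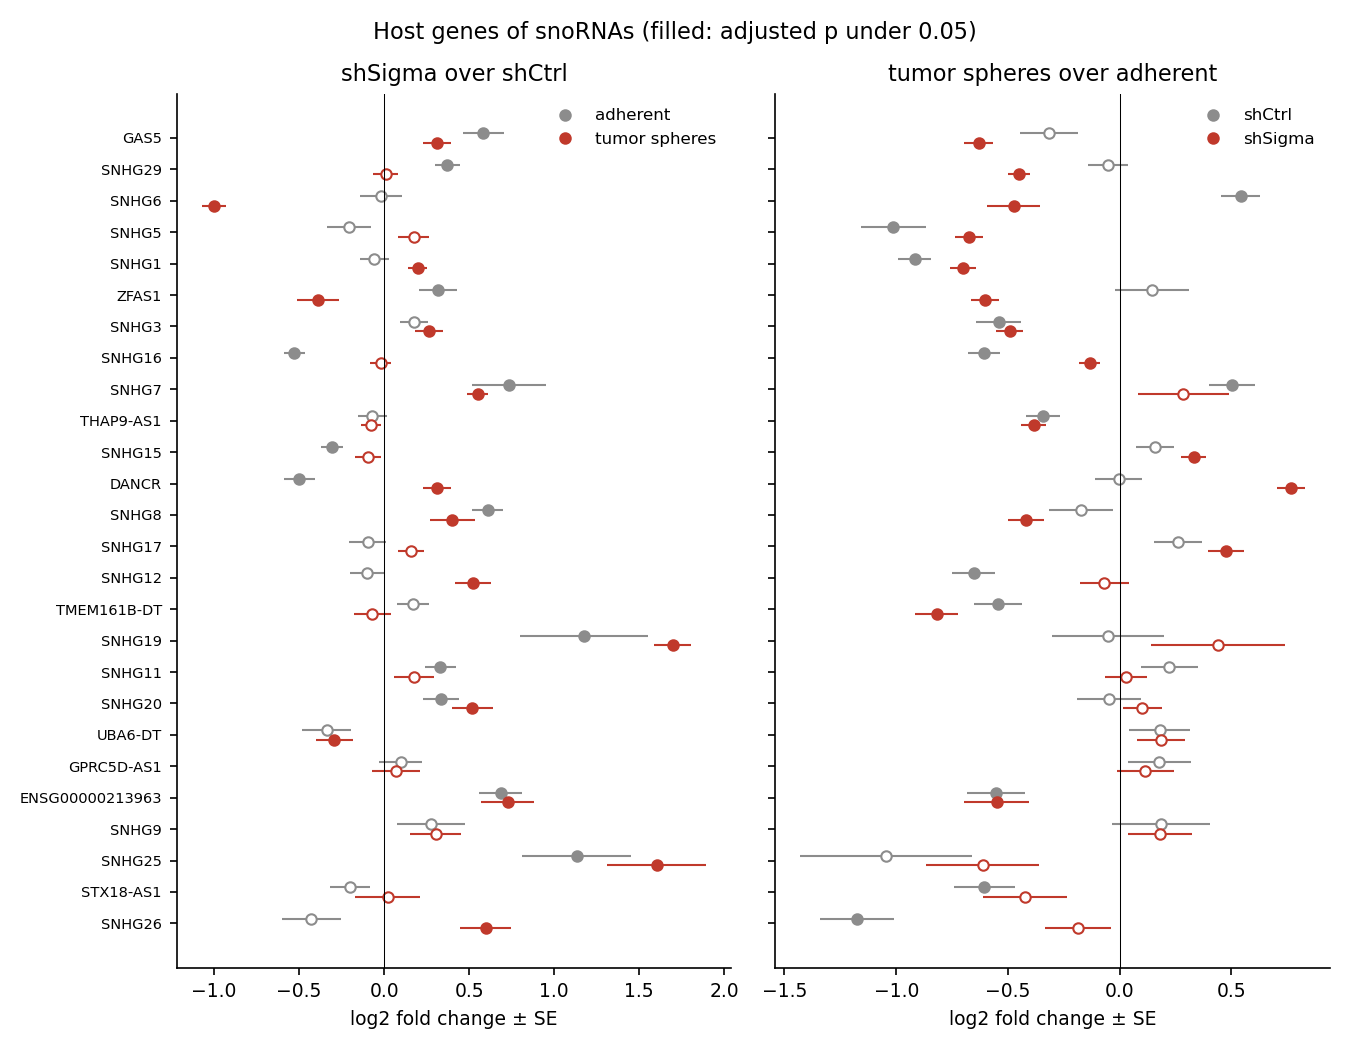
Log2 fold change with its standard error for the 26 snoRNA hosts, ordered by level, for shSigma over shCtrl in both cultures (left) and tumor spheres over adherent in both lines (right), with filled points at an adjusted p under 0.05. SNHG19 and SNHG25 lie to the right in both cultures on the left side, and SNHG5 and SNHG1 to the left of 0 in both lines on the right side.

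Among the 16 miRNA hosts, 6 were higher and 4 lower in adherent shSigma cells and 8 higher and 2 lower in shSigma spheres at an adjusted p under 0.05, which is 62.5% of them in each culture beside 50% and 61.1% of all genes tested. MIR100HG at chr11:122028325-122556721, of whose miRNAs 3 are shown above, stood at 53.6, 48.7 and 43.97 CPM in adherent shCtrl and at 16.6, 15.5 and 17.5 CPM in adherent shSigma libraries. In spheres it stood at 19.5, 24.7 and 19.8 CPM in shCtrl and at 4.69, 5.40 and 5.61 CPM in shSigma libraries. Its groups did not overlap in either culture, and the log2 fold changes were -1.63 ± 0.11 (adjusted p = 2.8e-05) and -2.03 ± 0.12 (adjusted p = 8.3e-08).

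MIR34AHG, host of the p53-induced miR-34a, stood at 8.06, 8.37 and 7.73 CPM in adherent shCtrl and at 5.90, 5.53 and 5.93 CPM in adherent shSigma libraries. Its levels in spheres were 11.4, 10.8 and 11.0 CPM in shCtrl and 5.04, 6.25 and 4.98 CPM in shSigma libraries. The fall passed the adjusted p in both cultures and the fold threshold in spheres only (-0.54 ± 0.11 and -1.03 ± 0.12), and the sphere call was lost when either of a pair of shSigma sphere libraries was left out. LINC-PINT, a p53-induced RNA whose annotated gene contains MIR29A and MIR29B1, went the other way, by 1.66 ± 0.15 in adherent cells (adjusted p = 0.00012) and 1.005 ± 0.13 in spheres (adjusted p = 3.6e-05), where the call was lost when any 1 of 3 libraries was left out.

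MIR1915HG was the member with the largest interaction above 0. It stood at 14.0, 12.9 and 15.5 CPM in adherent shCtrl and at 11.4, 10.3 and 11.3 CPM in adherent shSigma libraries. In spheres it stood at 3.75, 3.86 and 3.83 CPM in shCtrl and at 17.9, 19.4 and 16.4 CPM in shSigma libraries. The knockdown difference was thus below 0 in adherent cells (-0.42 ± 0.11, adjusted p = 0.012) and above 0 in spheres (2.23 ± 0.12, adjusted p = 2.0e-08). MIR4435-2HG was at 0.17 ± 0.10 in adherent cells and rose by 1.32 ± 0.12 in spheres, from 3.75 to 4.58 CPM up to 10.5 to 11.2 CPM.

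Genes that overlap or face a coding gene were set beside that partner. SOX21-AS1 at chr13:94703454-94803430 overlaps SOX21, which encodes a transcription factor of neural progenitors, on the other strand without a shared exonic base. It had 0.346, 0.127 and 0.315 CPM in adherent shCtrl and 0.143, 0.256 and 0.0482 CPM in adherent shSigma libraries, where it was too low to be tested. Its sphere levels were 21.9, 21.5 and 19.3 CPM in shCtrl and 0.453, 0.106 and 0.371 CPM in shSigma libraries. Only the sphere shCtrl libraries were high, and the difference in spheres was -6.04 ± 0.21 (adjusted p = 9.4e-10). SOX21 itself had 12.9, 14.5 and 11.3 CPM in sphere shCtrl libraries, 0.053 to 0.159 CPM in sphere shSigma libraries, and is listed at 0 in all adherent libraries. With a group mean above 5 CPM in 1 group only, SOX21-AS1 was a member through the group in which it was high.

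C10orf55 at chr10:73909969-73922777 lies on the other strand of PLAU, the gene of urokinase, with 36.4% of its exonic bases in common. It stood at 24.3, 24.5 and 26.7 CPM in adherent shCtrl and at 3.76, 3.79 and 3.71 CPM in adherent shSigma libraries. In spheres it stood at 26.2, 28.1 and 23.8 CPM in shCtrl and at 1.11, 1.01 and 1.11 CPM in shSigma libraries. The fall was -2.80 ± 0.10 in adherent cells (adjusted p = 3.5e-06) and -4.59 ± 0.13 in spheres (adjusted p = 2.0e-10), each with no overlap of the groups. PLAU fell as well, by 0.86 and 0.78 on the log2 scale. In shCtrl cells PLAU dropped by 1.69 from adherent cells to spheres while C10orf55 was at 0.05 ± 0.09 (adjusted p = 0.70). In shSigma cells both were lower in spheres, PLAU at -1.65 and C10orf55 at -1.77 ± 0.16 (adjusted p = 9.6e-05).

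SCAT8 lies on the other strand inside EYS, a photoreceptor gene, and shares no exonic base with another gene. It stood at 0.614, 0.634 and 0.631 CPM in adherent shCtrl and at 2.57, 3.28 and 2.84 CPM in adherent shSigma libraries. Its levels in spheres were 55.2, 55.6 and 43.8 CPM in shCtrl and 15.5, 15.1 and 16.4 CPM in shSigma libraries. Knockdown libraries were therefore higher in adherent cells (2.14 ± 0.19, adjusted p = 0.00011) and lower in spheres (-1.72 ± 0.10, adjusted p = 4.6e-08), with no overlap in either. EYS had 4.58 to 5.09 CPM in sphere shCtrl libraries and 0.847 to 1.17 CPM in sphere shSigma libraries. All adherent levels of SCAT8 were below 5 CPM, so it was a member through its sphere groups.

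ENSG00000187185, which overlaps the kinesin gene KIFC3 on the other strand, had the highest log2 fold change of all members in both cultures. It stood at 2.11, 2.33 and 3.19 CPM in adherent shCtrl and at 15.3, 17.6 and 10.8 CPM in adherent shSigma libraries. In spheres it stood at 2.11, 2.48 and 1.91 CPM in shCtrl and at 14.0, 13.5 and 15.6 CPM in shSigma libraries. The differences were 2.46 ± 0.25 and 2.72 ± 0.13 (adjusted p = 0.00020 and 1.3e-08), and KIFC3 was at 0.40 (adjusted p = 0.46) and 1.23 (adjusted p = 7.6e-06). All shCtrl levels of ENSG00000187185 were below 5 CPM, so it was a member through its shSigma groups. Its rank among members is therefore set in part by the rule of membership.

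RPL26L1-AS1 starts beside RPL26L1 and shares 14.0% of its exonic bases with genes on the other strand. It stood at 11.9, 11.2 and 11.7 CPM in adherent shCtrl, 27.4, 31.6 and 32.6 CPM in adherent shSigma, 2.17, 2.59 and 1.61 CPM in sphere shCtrl and 6.500, 5.98 and 5.88 CPM in sphere shSigma libraries. It rose by 1.33 ± 0.09 and 1.53 ± 0.17, while RPL26L1, a ribosomal protein paralog, fell by 0.54 and 0.71 on the log2 scale. ZEB1-AS1 rose by 0.98 ± 0.13 in spheres beside 4.07 for ZEB1, a factor of epithelial-mesenchymal transition, and TARID rose by 0.96 ± 0.09 in adherent cells beside 2.81 for EYA4. In spheres TARID was at -0.05 ± 0.13 (adjusted p = 0.74) and EYA4 at 1.33.

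Other called members of the class are given by value. MCM3AP-AS1 was higher in shSigma cells by 1.35 and 1.199, FMNL1-DT by 1.88 and 1.04, MAGI2-AS3 by 1.12 and 1.45, ZNF337-AS1 by 1.07 and 1.27, and ANXA2R-AS1 by 1.10 and 1.11 in adherent cells and spheres. ZDHHC12-DT stood at 26.0 to 32.6 CPM in adherent shCtrl and 6.81 to 8.58 CPM in adherent shSigma libraries, and at 23.7 to 30.1 CPM and 6.30 to 8.42 CPM in spheres. Its differences were -1.98 ± 0.14 and -1.89 ± 0.12, and the facing gene ZDHHC12 was at -0.19 and 0.23 (adjusted p = 0.84 and 0.27). MAP3K9-DT fell by 1.13 and 1.07 on the log2 scale, and its partner MAP3K9 was at -0.27 and -0.12 (adjusted p = 0.027 and 0.23). ENSG00000238142, on the other strand of CROCC, fell by 1.30 and 1.27, while CROCC was at 0.15 and 0.76 (adjusted p = 0.86 and 0.0065).

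Across all facing pairs, 65 of 96 had knockdown differences of the same sign in adherent cells (Pearson r = 0.49) and 64 of 95 in spheres (r = 0.31). Where member and partner both passed the adjusted p, 29 of 33 pairs in adherent cells and 28 of 41 in spheres went the same way. Of the antisense pairs, 84 of 139 in adherent cells (r = 0.22) and 87 of 140 in spheres (r = 0.49) had the same sign. Where both genes passed, 31 of 41 and 38 of 58 antisense pairs went the same way. Of the 22 pairs that overlap on the same strand, 11 had the same sign in either culture. Where both genes passed, 6 of 8 and 3 of 6 of these went the same way. The share over unrelated pairs of genes was not counted. Both genes of a pair were measured in the same libraries, several members stand in more than 1 pair, and reads may be shared, so these are descriptions across gene pairs.

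**Figure D4:**
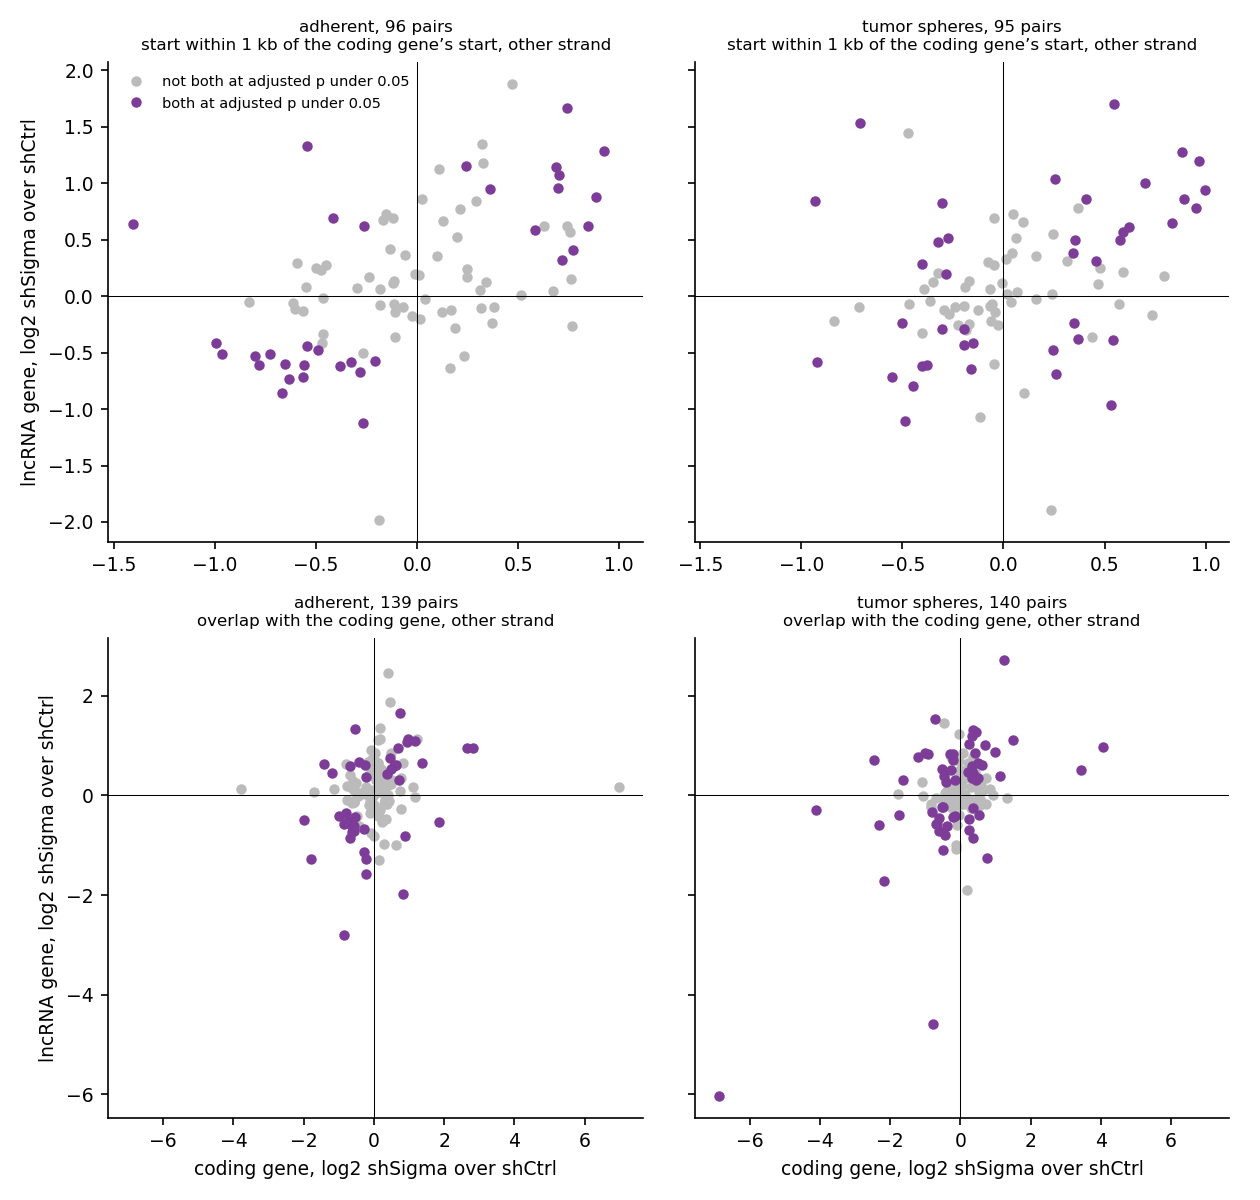
Log2 fold change of shSigma over shCtrl of each lncRNA gene (vertical) against that of its coding partner (horizontal), for facing pairs (top) and antisense pairs (bottom) in adherent cells (left) and tumor spheres (right), one point per pair, with axes shared within a row. In the top row, where both genes passed an adjusted p of 0.05, 29 of 33 and 28 of 41 pairs lie upper right or lower left of the axes. In the bottom row 31 of 41 and 38 of 58 such pairs do.

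Among members outside these classes, LINC00707 lies at chr10:6779549-6842906. It stood at 92.1, 87.0 and 83.2 CPM in adherent shCtrl and at 75.6, 75.0 and 86.7 CPM in adherent shSigma libraries. Its sphere levels were 14.2, 15.5 and 11.5 CPM in shCtrl and 3.63, 4.82 and 3.55 CPM in shSigma libraries. The adherent groups overlapped (-0.21 ± 0.08, adjusted p = 0.053), and the sphere groups were apart (-1.78 ± 0.15, adjusted p = 1.4e-06). LINC00511 stood at 5.45 to 5.79 CPM in adherent shCtrl, 3.42 to 3.86 CPM in adherent shSigma, 16.1 to 19.6 CPM in sphere shCtrl and 5.08 to 6.40 CPM in sphere shSigma libraries, with differences of -0.70 ± 0.13 and -1.61 ± 0.12. LINC01270 fell by 1.59 and 1.08 and GCAWKR by 1.01 and 1.57, and LINC02762 rose by 1.99 and 2.005. LINC01833 rose by 1.65 and 1.08, LINC01836 by 1.26 and 1.52 and MINCR, on chromosome 8, by 1.49 and 1.82 in adherent cells and spheres.

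Other calls were made in 1 culture. In adherent cells SFTA3 (ENSG00000229415, a lncRNA gene that shares its symbol with an overlapping coding gene) was at 1.63, BAIAP2-DT at 1.28, PAXIP1-DT at 1.15, CD27-AS1 at 1.14 and ZNF710-AS1 at 1.13 on the log2 scale. Below 0 were SLFNL1-AS1 at -1.59, PTPRG-AS1 at -1.27, SFTA1P at -1.08 and LINC01963 at -1.08. In spheres LINC01588 was at 1.94, ANXA2R-OT1 at 1.24, LINC02615 at 1.18, RIPK2-DT at -1.10 and OLMALINC at -1.11.

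The interaction of hairpin and culture, the sphere knockdown difference minus the adherent one in a fit of all 12 libraries, asked whether the knockdown difference itself differed. Past both thresholds 22 of 230 members were called, 11 above and 11 below 0, which is 9.57% beside 8.54% of all 14175 genes (2.5% above and 6.04% below 0) and 5.73% of coding genes of at least 5 CPM. At an adjusted p under 0.05, 29 were above and 41 below 0, beside 12.7% and 15.6% of all genes. The lowest were SOX21-AS1 at -5.21 ± 0.85, SCAT8 at -3.91 ± 0.20, C10orf55 at -1.84 ± 0.16 and LINC00707 at -1.63 ± 0.18, and the highest MIR1915HG at 2.59 ± 0.15, SLFNL1-AS1 at 2.01 ± 0.34, ZNF232-AS1 at 1.48 ± 0.18 and SFTA1P at 1.37 ± 0.20. C10orf55 fell in both cultures, and by more in spheres. Of these, SOX21-AS1, SCAT8, C10orf55, LINC00707 and MIR1915HG had a mean below 5 CPM in some group. They were members through the groups in which they were high, so their ranks are set in part by the rule of membership. Such members are also part of the 9.57%.

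The culture comparisons, tumor spheres against adherent cells within each line, share no library with one another and share theirs with the knockdown comparisons. In shCtrl cells 92 of 230 members were lower and 26 higher in spheres at an adjusted p under 0.05, 40.0% and 11.3% beside 26.3% and 27.4% of all 13800 genes. In shSigma cells 102 of 229 were lower and 24 higher, 44.5% and 10.5% beside 25.2% and 21.9% of all 13622 genes. Median log2 fold changes of members were -0.19 and -0.23, beside 0.04 and 0.00 for all genes and 0.01 and 0.01 for coding genes at the same 5 CPM limit. Past both thresholds 19 members were lower and 6 higher in shCtrl spheres, 10.9% of members beside 15.8% of all genes (4.96% lower and 10.8% higher). In shSigma spheres 13 were lower and 3 higher, 6.99% beside 9.32% of all genes (3.56% lower and 5.76% higher). Of coding genes at the same 5 CPM limit, 11.0% were called in shCtrl cells (3.94% lower and 7.1% higher). In shSigma cells it was 5.8% (1.8% lower and 3.99% higher). These totals were near those of members, but the directions differed. Members were 8.26% lower and 2.61% higher in shCtrl spheres, and 5.68% lower and 1.31% higher in shSigma spheres. The groups did not overlap for 136 members in shCtrl (62.7% of all genes) and for 153 in shSigma cells (60.8% of all genes). At an adjusted p under 0.05, 64 members were lower and 6 higher in both lines, and 8 went opposite ways, and the share over all genes was not counted. The median was below 0 for the hosts of snoRNAs (-0.11 and -0.29) and of miRNAs (-0.46 and -0.50), for antisense (-0.16 and -0.24) and for facing members (-0.07 and -0.23). It was also below 0 for same-strand members (-0.26 and -0.30) and for members outside all these classes (-0.35 and -0.21). In the list of messages with pyrimidine starts other than ribosomal protein genes, 9 of 13 tested were lower and 2 higher in shCtrl spheres. In shSigma spheres 9 of 12 were lower and 1 higher. Between the lines, 1 of 12 tested was higher and 5 lower in adherent shSigma cells. In shSigma spheres against shCtrl spheres, 5 of 13 were higher and 6 lower, all at an adjusted p under 0.05.

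**Figure D5:**
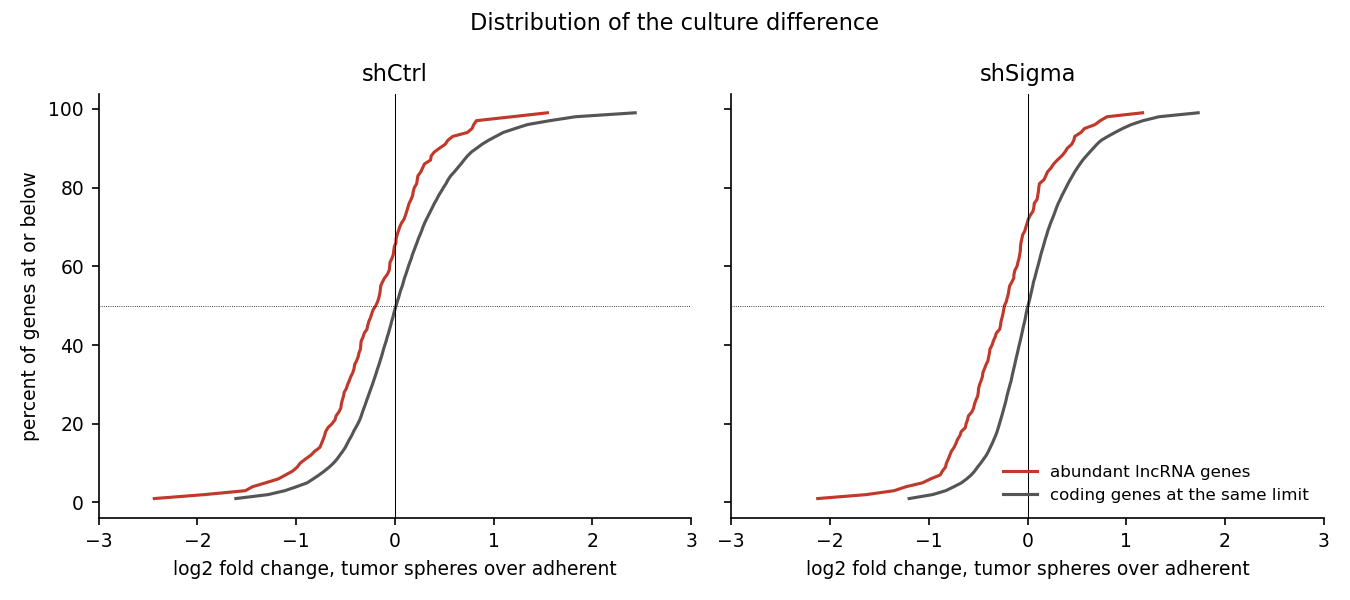
Percent of genes (vertical) at or below each log2 fold change of tumor spheres over adherent cells (horizontal), for the members and for autosomal coding genes at the same 5 CPM limit, in shCtrl (left) and shSigma (right) cells, drawn from percentile 1 to 99. The curve of the members lies to the left at the 50% line, with medians of -0.19 and -0.23 beside 0.01 in both lines for coding genes.

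SFTA1P stood at 95.2, 71.8 and 69.8 CPM in adherent shCtrl and at 5.91, 6.07 and 6.75 CPM in sphere shCtrl libraries. In shSigma cells it stood at 37.0, 36.8 and 43.98 CPM in adherent and at 9.42, 7.31 and 7.41 CPM in sphere libraries. The groups did not overlap, and it fell by 3.66 ± 0.15 in shCtrl and 2.26 ± 0.12 in shSigma cells on the log2 scale. LINC00707 fell by 2.67 ± 0.12 and 4.28 ± 0.12, RPL26L1-AS1 by 2.46 ± 0.17 and 2.29 ± 0.10, OLMALINC by 1.44 ± 0.10 and 1.63 ± 0.08, and MIR100HG by 1.19 ± 0.12 and 1.63 ± 0.11.

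SNHG1 stood at 329, 294 and 284 CPM in adherent shCtrl and at 162, 167 and 152 CPM in sphere shCtrl libraries. SNHG5 stood at 425, 334 and 317 CPM in adherent shCtrl and at 158, 208 and 167 CPM in sphere shCtrl libraries. Both were lower in spheres in either line, by 0.92 ± 0.07 and 1.01 ± 0.15 in shCtrl and by 0.70 ± 0.06 and 0.67 ± 0.06 in shSigma cells on the log2 scale. The members higher in spheres in both lines past both thresholds were SCAT8, at 6.35 ± 0.16 and 2.46 ± 0.12, and MBNL1-AS1, at 1.34 ± 0.12 and 1.27 ± 0.09. SOX21-AS1 was 6.27 ± 0.23 higher in shCtrl spheres and was too low to be tested in shSigma cells. MALAT1 was 1.08 ± 0.25 higher in shCtrl spheres, a call lost when any 1 of 3 libraries was left out. In the fixed list of RNAs without a poly(A) tail, 3 of 5 tested were higher and 0 lower in shCtrl spheres (median log2 1.12). In shSigma spheres 4 of 5 were higher and 0 lower (median 0.88), both at an adjusted p under 0.05. Of all genes, 27.4% and 21.9% were higher. The part of RNA selection in these culture differences was not tested.

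To set the called members beside their chromosomal surroundings, the median knockdown difference over 40 neighbouring genes was taken. It had the sign of the called member for 23 of 35 in adherent cells and 19 of 34 in spheres, with median sizes of 0.17 and 0.15. After it was subtracted, 22 and 27 of these members still differed by more than 1 on the log2 scale.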

How the data were processed

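DU145 RNA was sequenced in 12 libraries, 3 in each of 4 groups, named from the sample labels. The authors made directional libraries from total RNA, read 1 end, aligned the reads with STAR 2.6.1c to GRCh38.p12, both per the labels and methods, and deposited raw counts per gene. The annotation and the use of strand are not given in the sources used here. Members and lists were chosen with earlier results of these data known. Classes come from GENCODE 44 and RefSeq. CPM on TMM-scaled sizes, log2 fold changes and two-sided p-values were computed with edgeR 4.0.16 in R 4.3.3 (filterByExpr minimum count 10, robust quasi-likelihood, Benjamini-Hochberg over all genes, prior count 0.125). SE was derived from the F statistic. Each pair of groups was fitted on its own and the interaction on all 12 libraries. The 40 nearest genes are 20 on each side. The text names the 12 most abundant members, the most changed called members (15 or 8 each way), the most abundant of each class, fixed lists, and their partners, as far as they carry a result. Further called members, with ZEB1-AS1 and TARID, were named after their values were seen. Some genes, the targeted one among them, are not reported here. An exact permutation of 3 against 3 libraries cannot go below 0.1. Replicates differed by 2.73 to 43.9 chi-square per gene, beyond sampling noise. The fits were tested on simulated counts with far fewer changed genes than passed here, which does not probe the scaling when many genes change. Alternatives were other scaling, filters, thresholds, DESeq2 1.42.0, glmTreat, one fit of all libraries, the replicate block, narrower member rules and each library left out. Figures used Python 3.11.15 and matplotlib 3.10.9.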

Additional observations from a re-analysis of the deposited data

Results flagged for a closer look

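For 22 members the knockdown difference in tumor spheres differed from that in adherent cells past both thresholds, by the interaction test of the report. The values are sphere minus adherent log2 fold changes. Among those below 0 were SOX21-AS1 at -5.21, SCAT8 at -3.91, C10orf55 at -1.84, LINC00707 at -1.63, MALAT1 at -1.37, LUCAT1 at -1.35, SFTA3 (ENSG00000229415) at -1.20, ZNF710-AS1 at -1.16, TARID at -1.08 and SNHG6 at -1.03. Above 0 were LINC02615 at 1.01, PTPRG-AS1 at 1.03, ZEB1-AS1 at 1.04, LINC01963 at 1.04, MIR4435-2HG at 1.08, PINK1-AS at 1.09, LINC01588 at 1.203, SFTA1P at 1.37, ZNF232-AS1 at 1.48, SLFNL1-AS1 at 2.01 and MIR1915HG at 2.59. Of the 22, 13 were called whichever library was left out. The calls of MALAT1, TARID and SNHG6 were lost when any 1 of 5, 5 and 7 libraries was left out, that of PTPRG-AS1 for any 1 of 4, those of ZNF710-AS1 and LINC02615 for either of 2, and those of ZEB1-AS1 and LINC01963 for 1. The MALAT1 value was -0.97 without the first adherent shCtrl and the third adherent shSigma library. Groups of 3 were too small for a search for single outlying libraries.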

How the results depend on the processing

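Counts below are of members past both thresholds, for the adherent knockdown, the sphere knockdown, the interaction, and the culture difference in shCtrl and shSigma cells, which were 35, 34, 22, 25 and 16. A test against a log2 fold change of 1 (glmTreat) gave 15, 18, 6, 15 and 8, and the adjusted p alone gave 135, 131, 70, 118 and 126. Of members with at least 5 CPM in each group, 19, 14, 13, 13 and 7 were called, and of those with no exonic overlap 12, 10, 7, 7 and 4. Of members with at least 10 CPM, 18, 18 and 15 were called in both knockdown comparisons and in the shCtrl culture comparison. These counts are smaller or larger by the construction of the rule. Leaving out each library gave 33 to 36, 31 to 35, 18 to 23, 25 to 30 and 15 to 19. Other scaling, other filters, DESeq2, an adjusted p under 0.01 and, where it applied, one fit of all libraries kept each count within 1.5 times.

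Without both adherent libraries that stood apart, chosen after seeing the data, 32 adherent calls and 21 interaction calls were made, of which 31 and 20 were among the calls of the report. Correlations between the deviations of same-numbered libraries ran from -0.85 to 0.43. With 3 libraries per group the deviations from a group mean depend on one another. These correlations therefore cannot show whether the replicate numbers pair the samples. With the replicate block the counts were 33, 33, 22, 25 and 16. No named member's called difference changed sign under these alternatives, while some differences that had not passed the test did, such as MALAT1 in spheres (0.08 without the second shCtrl sphere library) and SNHG6 in adherent cells. The adherent call of GCAWKR was lost under both other scalings and DESeq2 (-0.95 to -0.98). Without a filter on low counts, or with at least 10 counts in every library, the share of members above 0 among those at an adjusted p under 0.05 in the interaction was 51.6% or 48.6%, and 41.4% in the report. Genes of a few CPM rest on few counts per library, which limits SOX21-AS1 outside shCtrl spheres.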
